A study of Mus musculus with 4 samples.

Results

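The genes described here encode the oxidative phosphorylation machinery of the mouse intestinal crypt. A gene was taken in when its symbol began with Ndufa, Ndufb, Ndufc, Ndufs, Ndufv, Uqcr, Cox4 to Cox8 or Atp5, or when it was 1 of the 13 protein genes of the mitochondrial genome, and when it had at least 50 UMIs (unique molecular identifiers, 1 per captured RNA molecule) over both deposited matrices. Of 32285 genes listed, 103 matched these names, 90 of them by a nuclear prefix; 1 pseudogene-marked symbol was left out and 6 fell under the minimum. That left 96 genes, 83 nuclear and 13 mitochondrial. Grouped by symbol, the nuclear set held 37 genes of complex I, 8 of complex III, 13 of complex IV and 17 of complex V. The Ndufa prefix also brought in 8 complex I assembly factors (Ndufaf1 to Ndufaf8). This grouping leaves Ndufa4, since assigned to complex IV, in complex I, and counts Cox7a2l in complex IV. The lowest gene inside the minimum was Cox6b2 with 333 UMIs, and the highest outside it was Cox6a2 with 3. The muscle and other tissue-restricted isoforms Cox4i2, Cox7b2, Cox8b, Cox8c and Ndufa4l2 had 0 to 2 UMIs each and fall outside the set as well. The set was proposed from earlier results of these same data.

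Oxidative phosphorylation couples electron transport along the inner mitochondrial membrane to the synthesis of ATP. Complex I passes electrons from NADH to ubiquinone, complex III passes them on to cytochrome c, complex IV reduces oxygen, and complex V uses the resulting proton gradient to make ATP. Complexes I, III, IV and V are mosaics: a few core subunits are encoded and translated inside the mitochondrion, while most subunits are encoded in the nucleus, made in the cytosol and imported. In the intestinal epithelium, Lgr5-positive stem cells at the crypt base give rise to dividing progenitors, which become absorptive enterocytes or secretory goblet, Paneth, enteroendocrine and tuft cells.

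All mice carried Lgr5-EGFP-IRES-CreERT2 and Rosa26-mTmG and received 4-OH-tamoxifen, so no untreated animals and no animals without the alleles served as controls. Cre is driven from the Lgr5 locus, and recombination switches the mTmG reporter from membrane tdTomato to membrane GFP. Tracing lasted 48 h in mice 1 to 4 and 72 h in mice 5 to 8. Every mouse gave a GFP-high fraction (called clones here) and a GFP-negative fraction (called control), both sorted from epithelium of the distal small intestine after the villi had been scraped off. The Lgr5 allele itself also makes a green protein, so a GFP-high gate can hold Lgr5-expressing cells as such, and the 2 sources of green cannot be told apart here. Hashtag antibodies marked the mouse, and cells were loaded in 2 pools that crossed gate and mouse: pool 1 held control cells of mice 1, 2, 5 and 6 and clones of mice 3, 4, 7 and 8, and pool 2 the reverse. Ages and sexes were not used here.

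After filtering, 1993 cells remained, with a median of 18684 UMIs. Epcam, an epithelial surface protein, was detected in 99.1% of them, the leukocyte gene Ptprc in 1.40% and the endothelial gene Pecam1 in 13 cells. The 2 pools shared 1 cell barcode. Counts were summed per mouse and gate into 16 sums. The clones at 48 h were thin, with 4, 15, 83 and 8 cells from mice 1 to 4, against 40 to 326 clone cells per mouse at 72 h and 74 to 261 control cells per mouse. The 83 clone cells of mouse 3 stood apart in depth, with a median of 1841 UMIs per cell, and the 15 of mouse 2 had 5662, where the other 14 sums had 17157 to 27435. Gate differences in summed shares that include mouse 3 are therefore given with and without it. Those within clusters and pools, and the shares of cells past the mitochondrial limit, are given over all mice only. In these sums, fewer cells of a type and less RNA per cell cannot be told apart.

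A filter on the mitochondrial share of UMIs bears directly on the 13 mitochondrial genes, because cells with 20% or more mitochondrial UMIs were left out as damaged. Of the 3539 cells with at least 1000 UMIs and 500 genes, 1330 had 20% to 50% and 216 had 50% or more. In clones at 48 h, 56.3% ± 17.5 (SD, n = 4 mice) of cells were at 20% or more, against 35.2% ± 8.25 in control cells of the same mice. At 72 h the shares were 49.0% ± 9.85 in clones and 46.4% ± 18.4 in control cells.

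Promoter sequences are shown for 4 nuclear genes that are named in the results below. Cox7a1 and Cox7a2 are alternative isoforms with different distributions over cell classes. Ndufa11 was among the genes lower in clones when the mouse was taken into account. Cox6a1, another isoform gene, is shown as a second promoter with the NRF1 motif. No link between a motif and a level was tested. The sequences are from RefSeq (GRCm38.p6), run 5′ to 3′ on the gene's strand and cover up to 200 bases before the annotated start, less any base inside the gene as GENCODE annotates it. Capitals mark the palindromic motif of nuclear respiratory factor 1 (NRF1), a transcription factor named for its sites in respiratory chain genes.
Cox7a1 (chr7:30183971-30184143, plus strand): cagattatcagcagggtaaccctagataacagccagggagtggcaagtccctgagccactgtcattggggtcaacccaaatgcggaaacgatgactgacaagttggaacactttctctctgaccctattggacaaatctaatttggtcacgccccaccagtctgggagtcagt
Cox7a2 (chr9:79759879-79760053, minus strand): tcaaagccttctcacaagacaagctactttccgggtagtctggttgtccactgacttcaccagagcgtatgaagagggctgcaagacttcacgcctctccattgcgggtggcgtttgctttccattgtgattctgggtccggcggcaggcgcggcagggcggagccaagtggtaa
Ndufa11 (chr17:56717562-56717761, plus strand): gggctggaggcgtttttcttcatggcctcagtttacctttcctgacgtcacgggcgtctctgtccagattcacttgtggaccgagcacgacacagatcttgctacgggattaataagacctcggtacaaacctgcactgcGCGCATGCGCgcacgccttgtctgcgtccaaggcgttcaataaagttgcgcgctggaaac
Cox6a1 (chr5:115348982-115349158, minus strand): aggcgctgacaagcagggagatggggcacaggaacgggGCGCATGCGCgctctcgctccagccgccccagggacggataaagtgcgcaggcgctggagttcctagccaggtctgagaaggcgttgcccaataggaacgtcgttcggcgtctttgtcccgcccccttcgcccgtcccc
The NRF1 motif begins 60 bases before the start of Ndufa11 and 162 bases before that of Cox6a1. None of the motifs searched lies in the stretches printed for Cox7a1 and Cox7a2.

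Over windows from 250 bases before to 50 after the start, on both strands, 70 of the 83 nuclear genes had a promoter in the RefSeq table. The NRF1 motif was in 7 of the 70 (10%), against 1.47% of 17492 coding genes. The ETS-family motif CCGGAAG, bound by GABP, was in 17 (24.3%) against 12.9%, and the estrogen-related receptor motif AAGGTCA in 7 (10%) against 4.73%. The YY1 motif GCCATNTT was in 18 (25.7%) against 7.46%, and in 12 of the 33 complex I subunits (36.4%). These are matches of letters in a window and are descriptions.

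The steady levels of the machinery were high. Summed over nuclear members, each of the 16 sums held between 3.07% and 4.03% of its nuclear UMIs, and the 13 mitochondrial genes made up 5.13% to 8.10% of all UMIs. UMI counts were not divided by gene length, so the following levels describe counted molecules. The most counted complex I genes were Ndufa4, a subunit since assigned to complex IV, with 918 ± 144 CPM (counts scaled to a total of 1000000 per sum; SD, n = 16 sums), and the accessory subunits Ndufb9 (473 ± 58.1) and Ndufa13 (408 ± 61.3). In complex III they were the hinge protein gene Uqcrh (804 ± 51.7), Uqcr10 (650 ± 108) and Uqcrq (576 ± 109). In complex IV they were Cox7c (1434 ± 153), Cox8a (1307 ± 125) and Cox4i1 (1304 ± 116), and in complex V the catalytic beta subunit gene Atp5b (1006 ± 99.8), Atp5e (878 ± 77.8) and the c-ring gene Atp5g1 (691 ± 108). The mitochondrial genes mt-Atp6 (13064 ± 1505), mt-Co3 (12474 ± 1548) and mt-Co1 (12128 ± 1630) led that genome. Of the genes named here, Ndufa13 overlaps Yjefn3, Cox4i1 overlaps Gm20388 and Ndufb9 overlaps Gm49356 on the same strand, so their counts are less certain.

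Cells were grouped without the 96 genes among the variable genes, and clusters were named from marker lists, so a class name means "like" that type. The main classes were stem-like (449 cells), dividing (618), goblet-like (489) and enterocyte-like (241). Smaller ones were Paneth-like (66), dividing secretory (49), tuft-like (47) and enteroendocrine-like (34). Levels by class are descriptions over mice with at least 10 cells of the class, with no test.

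Nuclear oxidative phosphorylation genes were most abundant in enterocyte-like cells. In control cells they took a lowest, median and highest share of 5.03%, 5.48% and 5.98% of nuclear UMIs there (mean 5.52% ± 0.348, SD, n = 7 mice). Dividing cells held 3.78%, 3.91% and 4.47% (4.04% ± 0.255, n = 8). Stem-like cells held 2.84%, 3.23% and 3.63% (3.23% ± 0.317, n = 7) and goblet-like cells 2.60%, 3.20% and 3.54% (3.09% ± 0.298, n = 8). Enterocyte-like mice lay above all dividing ones, and dividing ones above all stem-like and goblet-like ones, while those 2 overlapped through most of their range. In 2 mice, Paneth-like cells were at 2.23% ± 0.457.

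The mitochondrial genes followed another order. Dividing cells were highest, with a lowest, median and highest mitochondrial share of 7.78%, 9.31% and 11.0% of all UMIs (9.39% ± 0.992, n = 8). Enterocyte-like cells (8.57% ± 1.26, n = 7) and stem-like cells (7.72% ± 1.01, n = 7) overlapped with them and with each other. Goblet-like cells were lower, at 4.93%, 5.51% and 6.47% (5.53% ± 0.503, n = 8), overlapping only the low end of stem-like mice (6.12%), and Paneth-like cells lower still, at 3.62% ± 0.315 (n = 2). For each UMI of a nuclear member there were 2.61 ± 0.432 mitochondrial UMIs in stem-like and 2.57 ± 0.303 in dividing cells, against 1.91 ± 0.284 in goblet-like and 1.70 ± 0.238 in enterocyte-like cells. Under every clustering, filter and naming alternative run, enterocyte-like cells were highest and dividing cells next for the nuclear genes, and goblet-like cells were lowest for the mitochondrial genes among these 4 classes. Which class led the mitochondrial genes depended on the limit on mitochondrial share: enterocyte-like cells led at 10% (6.15%) and stem-like cells at 50% (14.1%).

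**Figure D1:**
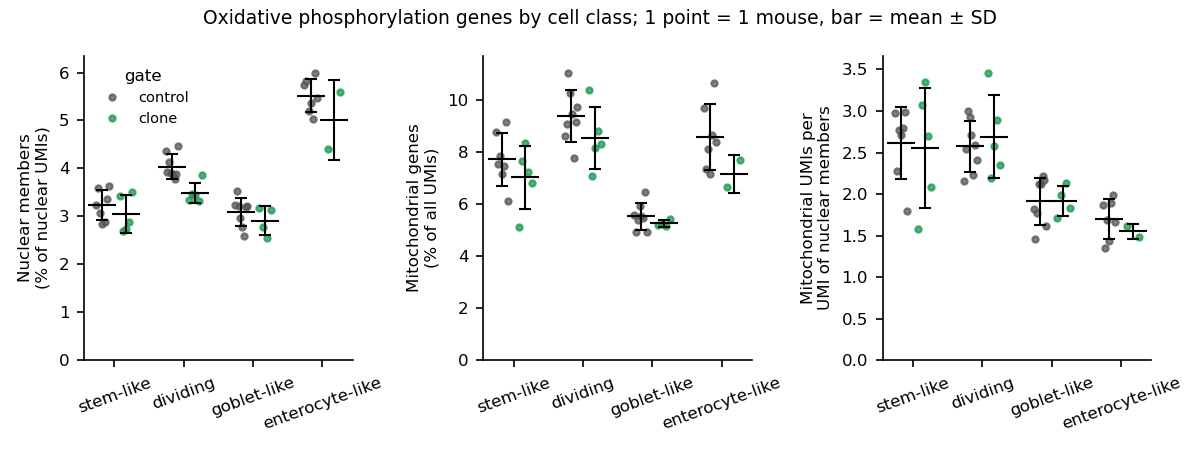
Each point is 1 mouse, grey for control cells and green for clones, with mean ± SD bars, over 4 cell classes. The y axes show nuclear members as percent of nuclear UMIs, mitochondrial genes as percent of all UMIs, and the ratio of mitochondrial to nuclear member UMIs. Enterocyte-like control points (5.03% to 5.98%) lie above every other class in the first panel, and goblet-like means are lowest in the second.

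The control levels of the classes are given by tracing time as descriptions. Dividing control cells held 4.08% nuclear members at 48 h and 4.00% at 72 h, enterocyte-like cells 5.59% and 5.46%, goblet-like cells 3.24% and 2.95%, and stem-like cells 3.30% and 3.18%. Each of these shifts was smaller than the SD over all control mice of its class.

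Within classes, the clusters differed as well. Among stem-like cells, cluster 8, where Lgr5 was detected in 88.2% of cells, had 2.75% nuclear members and 6.63% mitochondrial UMIs. Cluster 5, with Lgr5 in 60.2%, had 3.85% and 8.02%. Among dividing cells, cluster 1, led by mitotic genes and with Lgr5 in 96.6% of cells, had 2.93% and 7.44%, against 3.75% to 4.49% nuclear members and 9.33% to 9.98% mitochondrial UMIs in the other dividing clusters. Cluster 5 lay above cluster 8 in 8 of 8 mice for the nuclear members and in 6 of 8 for the mitochondrial share (difference 1.38 ± 1.81 percentage points, SD). Median depths were 16811 UMIs in cluster 8, 11922 in cluster 5, 30379 in cluster 1, and 14087, 16231 and 16129 in the dividing clusters 0, 2 and 13, and depth also bears on whether Lgr5 is detected; its part was not tested. Among goblet-like cells, cluster 6 (3.40% nuclear, 5.29% mitochondrial) and cluster 7, led by Muc2 (2.49%, 5.92%), also differed.

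Gene by gene, the rise in enterocyte-like cells ran through all complexes. Of 83 nuclear genes, 77 had a higher mean in enterocyte-like than in stem-like control cells, and 68 were higher in every 1 of 7 mice. Among 5211 other genes with at least 1000 UMIs, 20.4% were higher in every mouse and 46.8% had a higher mean. The median log2 ratio was 0.79 for the nuclear genes and -0.07 for the other genes. By complex, 36 of 37 complex I subunits (median 0.72), 8 of 8 in complex III (0.95), 11 of 13 in complex IV (0.86) and 17 of 17 in complex V (0.81) had a higher mean. The 8 assembly factors, which build complex I but are not part of it, stood apart with 5 higher, 0 of them in every mouse, and a median of 0.11. Of the 13 mitochondrial genes 11 had a higher mean, 4 of them in every mouse, with a median of 0.13. As given above, the order of these classes in mitochondrial share changed with the clustering and filters.

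Against stem-like cells, dividing cells had more of both sets. The mean was higher for 77 of 83 nuclear genes, 52 of them in every 1 of 7 mice (other genes 19.9%), with a median log2 ratio of 0.40. All 13 mitochondrial genes had a higher mean, 4 of them in every mouse (median 0.31). For comparison, 67% of other genes also had a higher mean in dividing cells, with a median of 0.19. All 8 assembly factors were among the higher ones (median 0.43).

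Between dividing and enterocyte-like cells the nuclear and mitochondrial genes parted. Of the nuclear genes, 75 of 83 had a higher mean in enterocyte-like cells, 57 of them in every 1 of 7 mice (other genes 15.7%; median log2 ratio 0.38). Of the mitochondrial genes 0 of 13 did, with a median of -0.14, although 0 of 13 were lower in every mouse. Among the assembly factors, 6 of 8 had a lower mean in enterocyte-like cells (median -0.20). Of other genes, 62.1% had a lower mean there and 29.2% were lower in every mouse, with a median of -0.20. The median of the assembly factors was thus close to that of other genes.

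**Figure D2:**
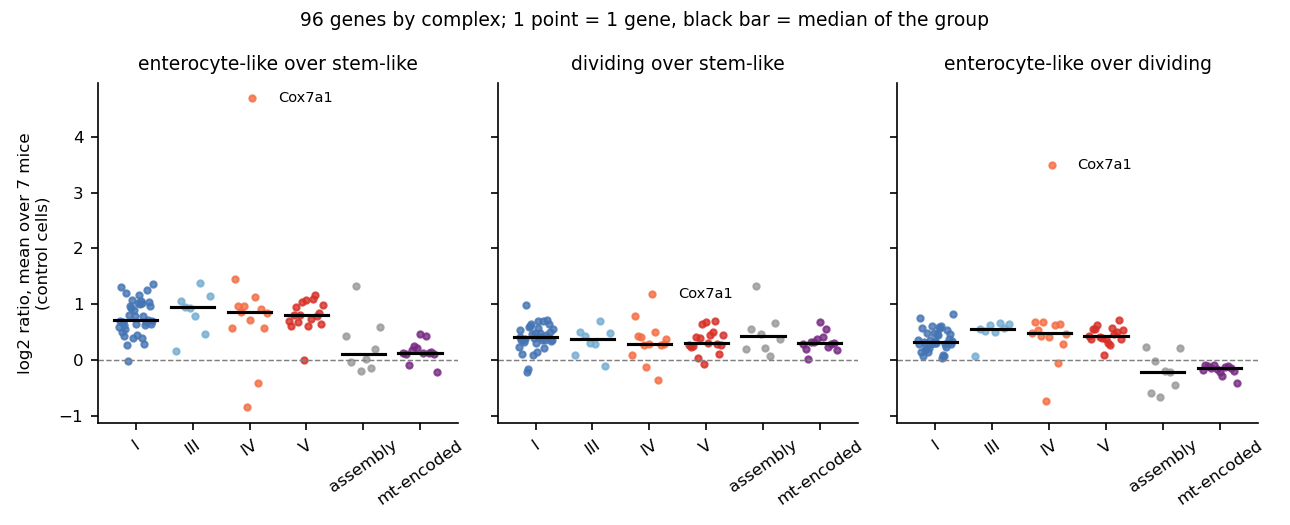
Each point is 1 gene, placed by its log2 ratio between 2 classes of control cells (mean over 7 mice, y axis) and grouped by complex, assembly factors or mitochondrial genome (x axis), with black bars at the group medians. The enterocyte-like over stem-like medians are 0.72 to 0.95 for complexes I to V and 0.13 for the mitochondrial genes, and Cox7a1 stands far above the others at 4.68.

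Goblet-like cells carried less of the mitochondrial genes than any other main class. All 13 were lower than in stem-like cells in every 1 of 7 mice (other genes 27.7%), with a median log2 ratio of -0.49. Against dividing cells 12 of 13 were lower in every 1 of 8 mice (other genes 40.8%), with a median of -0.84. Goblet-like cells were also highest of these 4 classes in 7 genes of dissociation stress (7932 nuclear CPM summed, against 4721 in stem-like, 2810 in dividing and 2344 in enterocyte-like cells) and in the nuclear-retained RNAs Malat1 and Neat1 (12458 against 10068, 7743 and 8144), and their part in the low mitochondrial levels was not tested. The nuclear genes were split against stem-like cells, with 30 higher and 53 lower (median -0.14). Other genes were near this, with 58.3% lower and a median of -0.16. Against dividing cells 78 of 83 nuclear genes had a lower mean, 54 of them in every mouse (median -0.50). Of other genes, 68.6% had a lower mean there and 40.8% were lower in every mouse (median -0.33). Enterocyte-like exceeded goblet-like cells in the mean of all 83 nuclear genes, 75 of them in every 1 of 7 mice (other genes 23.8%; median 0.93).

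Summed by complex as grouped by symbol, the nuclear complex I genes, Ndufa4 among them, had 8992 nuclear CPM (counts scaled to 1000000 UMIs of nuclear genes) in stem-like, 11572 in dividing, 8531 in goblet-like and 14930 in enterocyte-like control cells. Nuclear complex IV rose in the same steps, from 9282 in stem-like to 11380 in dividing and 16220 in enterocyte-like cells, and complex V from 10121 to 12699 and 17452. The mitochondrial partners of complex I had 16109, 21450, 11450 and 18765 CPM in the same order of classes. Those of complex IV had 37959, 43705, 27989 and 41196.

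The widest range over classes belonged to Cox7a1, the isoform of a complex IV subunit best known from heart and skeletal muscle. Enterocyte-like control cells had a lowest, median and highest level of 128, 151 and 297 nuclear CPM for Cox7a1 (177 ± 60.2, SD, n = 7 mice). Goblet-like cells had 34.2, 52.2 and 88.3 (60.5 ± 21.2, n = 8), dividing cells 2.47, 16.4 and 31.9 (15.6 ± 8.54, n = 8) and stem-like cells 1.17, 6.38 and 18.2 (7.32 ± 5.76, n = 7). Enterocyte-like mice thus lay above all others, goblet-like mice above all dividing and stem-like ones, and the last pair overlapped. The stem-like level rests on 16 UMIs in all, against 617 in enterocyte-like, 471 in goblet-like and 122 in dividing cells, and the part of free RNA in it was not tested.

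Cox7a2, the isoform found in most tissues, was abundant in every class, with 1118 nuclear CPM in enterocyte-like, 715 in dividing, 632 in goblet-like and 512 in stem-like control cells. Cox7a1 accounted for 13.5% ± 2.96 (SD, n = 7) of the UMIs of both genes in enterocyte-like and 8.63% ± 2.22 (n = 8) in goblet-like cells. In dividing cells it was 2.09% ± 1.01 (n = 8) and in stem-like cells 1.39% ± 1.10 (n = 7). The third gene of the group is Cox7a2l, whose product joins complexes III and IV into supercomplexes. Its mean was highest in stem-like cells, at 462 ± 60.7, against 351 ± 49.9 in dividing, 348 ± 55.5 in enterocyte-like and 237 ± 35.2 in goblet-like cells.

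**Figure D3:**
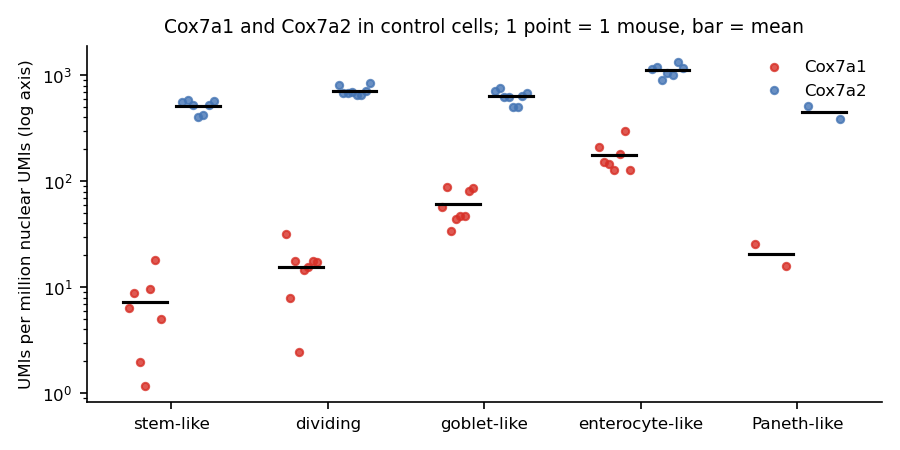
Levels of Cox7a1 (red) and Cox7a2 (blue) in control cells by class, as nuclear CPM on a log axis; each point is 1 mouse and bars are means. Cox7a1 spans 1.17 to 297 over mice and classes, whereas the Cox7a2 means of the 4 main classes lie between 512 and 1118.

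Other alternative isoforms moved less. Cox6b2, a testis-type isoform, was at 11.2 ± 9.38 nuclear CPM in stem-like cells and 1.20 ± 0.729 in goblet-like cells, beside 698 and 757 for the common isoform Cox6b1. The 3 genes Atp5g1, Atp5g2 and Atp5g3 encode the same mature c-ring subunit of complex V with different import sequences. Atp5g1 was at 567 in stem-like, 874 in dividing, 687 in goblet-like and 1169 in enterocyte-like cells, and Atp5g3 at 434, 697, 446 and 903. Atp5g2 was at 660, 608, 531 and 660, a range of 1.24-fold over these classes. Cox4i1, Cox6a1, Cox7b and Cox8a, the isoforms found in most tissues, had their highest means in enterocyte-like cells, at 2150, 897, 1369 and 2077. Ndufa4 was at 1308 there and 901 in stem-like cells.

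After Cox7a1, the widest ranges among nuclear genes with at least 1000 UMIs were those of Ndufa5 (2.81-fold), a subunit of the matrix arm of complex I, and Cox5a (2.72-fold), a core-associated subunit of complex IV. Cox5a stood at 1441 ± 205 nuclear CPM in enterocyte-like and 531 ± 125 in stem-like cells. The narrowest was Ndufa7 (1.13-fold). Among mitochondrial genes the widest were mt-Nd6 (2.15-fold), mt-Nd1 (2.13-fold) and mt-Nd2 (2.01-fold), all complex I subunits, and the narrowest was mt-Co1 (1.26-fold).

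The make-up of the mitochondrial RNA differed between classes as well. mt-Co1, the catalytic subunit of complex IV, accounted for 20.2% ± 1.12 of mitochondrial UMIs in goblet-like and 18.2% ± 1.34 in stem-like control cells, against 15.4% ± 1.05 in enterocyte-like and 14.9% ± 1.81 in dividing cells. mt-Nd1 went the opposite way, from 5.74% ± 0.625 in dividing and 5.38% in enterocyte-like to 4.59% in goblet-like and 4.34% in stem-like cells.

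Other genes of energy metabolism, from lists chosen with earlier results known, are given beside the members as nuclear CPM in control cells. Complex II and cytochrome c (6 genes) followed the nuclear members, with 932 ± 143 in stem-like, 1502 ± 229 in dividing, 971 ± 135 in goblet-like and 2085 ± 407 in enterocyte-like cells. The tricarboxylic acid cycle (18 genes) had 2230, 2812, 2213 and 3467, and glycolysis (16 genes) 1636, 2411, 2111 and 3838. The mitochondrial ribosome (78 genes), which translates the mitochondrial members, had 6379, 8375, 5521 and 7837. The list of mitochondrial biogenesis regulators (21 genes) had 1031, 1196, 644 and 844. Both of these lists were highest in dividing and lowest in goblet-like cells, the order of the mitochondrial genes at its ends.

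Over 35 sums of control cells per class and mouse, the genes most like the summed nuclear members by Spearman's rho, among 3536 genes, were Dbi (0.97), Prdx1 (0.97), Cyc1 (0.96), Pycard (0.95) and Sdhb (0.93). Cyc1 is a complex III subunit whose symbol lies outside the prefixes, and Sdhb is a complex II subunit. The genes most like the summed mitochondrial genes were Cluh (0.87), whose product binds messengers of nuclear-encoded mitochondrial proteins, Cnih4 (0.87), Phb2 (0.86), an inner-membrane prohibitin, Fam136a (0.86) and Mgam (0.85). The 2 sums themselves had a rho of 0.70. The points share mice and libraries, so these values are descriptions.

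The comparison of clones with control cells asked whether descendants of recombined Lgr5-positive cells differed from the rest of the crypt epithelium. The nuclear members took 4.03%, 3.51%, 3.55% and 3.70% of nuclear UMIs in clones of mice 1 to 4 and 3.81%, 3.89%, 3.88% and 3.49% in their control cells. At 72 h clones of mice 5 to 8 held 3.15%, 3.07%, 3.17% and 3.79%, and control cells 3.68%, 3.25%, 3.67% and 3.74%. Clones were lower in 2 of 4 mice at 48 h (mean difference -0.07 ± 0.334 percentage points, SD; 0.0191 ± 0.348 without mouse 3, lower in 1 of 3) and in 3 of 4 at 72 h (-0.29 ± 0.279), and the groups overlapped at both times.

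The mitochondrial share was 5.13%, 6.19%, 7.48% and 5.44% in clones of mice 1 to 4, below 7.03%, 7.13%, 7.86% and 7.21% in their control cells. Clones were lower in 4 of 4 mice, by a mean of 1.25 ± 0.717 percentage points, and without mouse 3 the mean difference was -1.54 ± 0.520 (n = 3). At 72 h clones held 6.91%, 7.11%, 7.50% and 7.13% and control cells 7.35%, 6.91%, 8.10% and 6.60%, with clones lower in 2 of 4 mice (-0.08 ± 0.528). The 48 h direction depended on the limit on mitochondrial share: with no limit, clones at 48 h averaged 15.4% and control cells 10.6%. For each UMI of a nuclear member, clones at 72 h had more mitochondrial UMIs in 4 of 4 mice, by 0.178 ± 0.0372, and at 48 h fewer in 3 of 4 (-0.33 ± 0.384; -0.47 ± 0.327 without mouse 3, fewer in 3 of 3). Within pools, the 48 h mitochondrial means were 6.46% in clones and 7.08% in control cells of pool 1, and 5.66% and 7.53% in pool 2, with 2 mice in each.

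**Figure D4:**
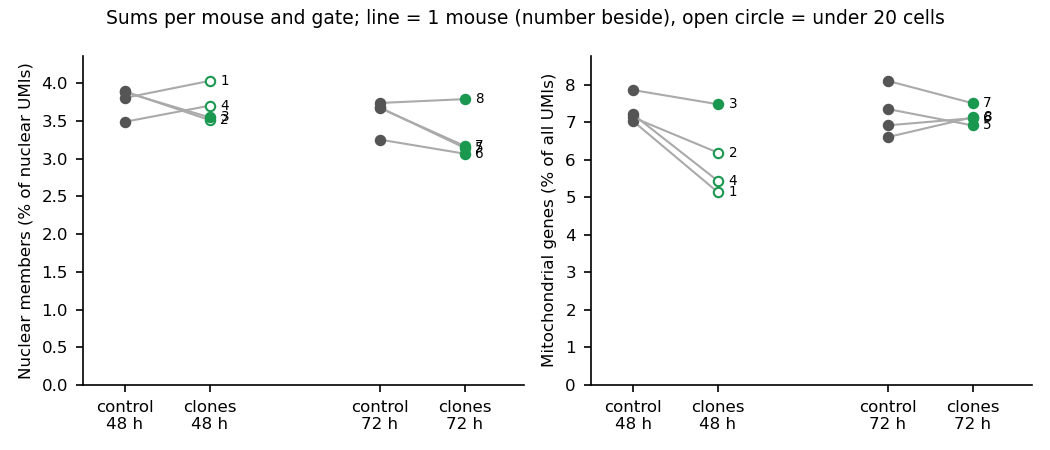
Each line joins the control (grey) and clone (green) sum of 1 mouse, numbered beside the clone point; open circles are sums of under 20 cells. The y axes show nuclear members as percent of nuclear UMIs and mitochondrial genes as percent of all UMIs. All 4 lines at 48 h fall in the mitochondrial panel, from 7.03% to 7.86% in control cells to 5.13% to 7.48% in clones, and lines at 72 h go both ways.

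Tested gene by gene over the 16 sums with edgeR's quasi-likelihood test and Benjamini-Hochberg adjustment, 0 of the 96 genes were called in any of 6 contrasts (the gate difference over all mice and at each tracing time, the time difference within each gate, and the interaction of gate and time). The background was 0.00943% of 10606 genes called, 1 gene, for clones against control over all mice, and 0% in the other 5. DESeq2 called Cox7a1 and Ndufa11 over all mice (1.37% of 19588 genes) and 0 members in the other contrasts, where it called 0.337% of genes at 48 h, 0.0357% at 72 h, 0.00511% between times in clones, 0.112% between times in control cells and 0.0357% for the interaction. At an unadjusted p under 0.05, edgeR had 22 nuclear genes lower and 1 higher of 83 in clones over all mice, against 10.2% lower and 6.58% higher of all genes, with a median log2 difference of -0.15 for the nuclear genes and -0.04 for all genes. For the mitochondrial genes it was 6 of 13 lower and 0 higher (median -0.18). The nuclear count at that threshold was 13 without mouse 3, 12 without mouse 1, 12 without mouse 2, 8 without mouse 5 and 10 without mouse 7. The mitochondrial count was 1 without mouse 1, 3 without mouse 2, 2 without mouse 4, mouse 5 or mouse 7, and 10 without mouse 3. With hashtags assigned by a Gaussian mixture, 2 nuclear and 0 mitochondrial genes were lower at that threshold. With no mitochondrial limit 58 nuclear genes were lower and the mitochondrial median turned to 0.22. Here and below, counts under such alternatives come without the share of all genes in the same setting, unless it is printed beside them. Counts without it do not show whether the members moved more than other genes.

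At 48 h alone 8 nuclear genes and 9 of 13 mitochondrial genes were lower at an unadjusted p under 0.05 (all genes 7.8% lower and 4.27% higher), with medians of -0.09 and -0.32. Without mouse 1 the mitochondrial count was 1, without mouse 4 it was 2, without mouse 2 it was 5 and without mouse 3 it was 12. It was 0 with hashtags assigned by a Gaussian mixture and 2 with either a required hashtag share or a higher UMI minimum per cell. With the limit on mitochondrial share at 50%, the mitochondrial median turned to 0.46. At 72 h 6 nuclear genes (median -0.17) and 0 mitochondrial genes (median -0.05) were lower at that threshold (all genes 3.71% lower and 4.01% higher). The nuclear count at 72 h was 0 without mouse 5, 0 without mouse 7, 16 without mouse 8, 12 without mouse 6 and 11 without mouse 4, and 29 with DESeq2. In clones, 72 h against 48 h gave 8 of 13 mitochondrial genes higher at an unadjusted p under 0.05 (all genes 4.3% higher and 1.83% lower; median 0.34), and in control cells 0 of 13 (all genes 3.1% higher and 1.96% lower). The change of the gate difference between 48 h and 72 h, tested as an interaction with edgeR, called 0 members, with a median of 0.27 over the mitochondrial genes and 1 of 13 at an unadjusted p under 0.05 (all genes 3.52% higher and 1.57% lower).

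**Figure D5:**
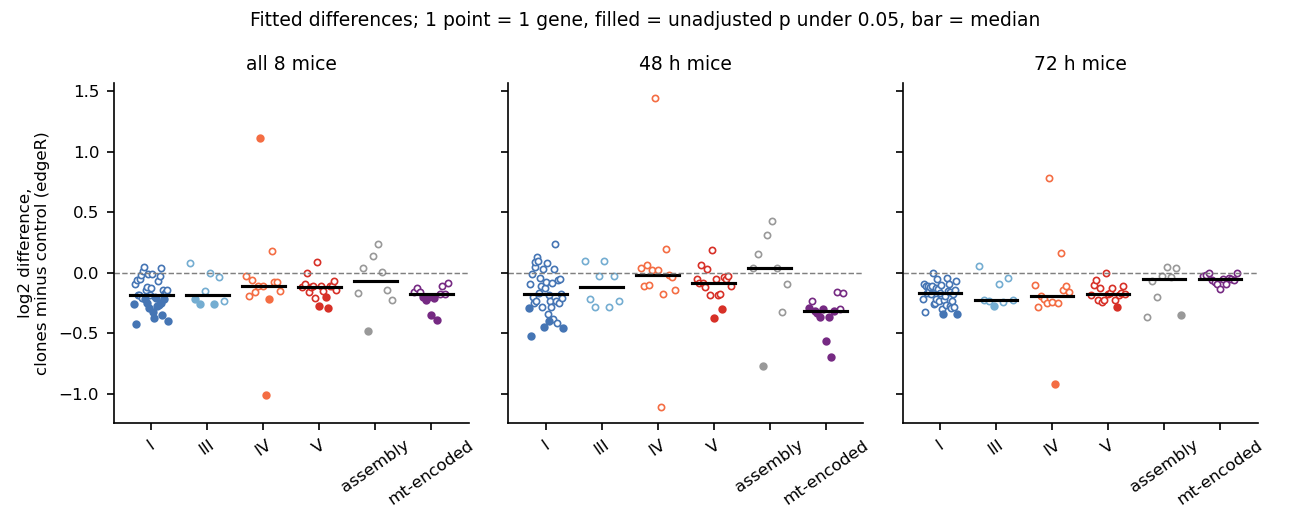
Each point is 1 gene, placed by its fitted log2 difference between clones and control cells (y axis) and grouped by complex, assembly factors or mitochondrial genome (x axis); filled points have an unadjusted p under 0.05 and black bars are medians. The mitochondrial median is -0.32 at 48 h and -0.05 at 72 h, while points of complexes I to V lie mostly below 0 at 72 h. The 2 points of complex IV far from the rest over all mice are Cox6b2 at 1.11 and Cox7a1 at -1.01.

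Because each mouse gave both gates, the fit with mouse as a block bears on these contrasts, and it changed calls. With the block, edgeR called 4.67% of 10606 genes over all mice, 3.09% as lower in clones and 1.57% as higher, and among them 4 of 83 nuclear and 2 of 13 mitochondrial members, all lower. Those members fell by 0.30 to 0.43 on the log2 scale. The nuclear count was close to the share of all genes called. The nuclear genes named next are therefore single genes, and their calls do not set the nuclear members apart from other genes. Ndufa11 (ENSMUSG00000002379, chr17:56717767-56722141, plus strand, GRCm38), an accessory subunit of the membrane arm of complex I, had 219, 135, 191, 95, 146, 127, 152 and 195 CPM in clones of mice 1 to 8. Its control values were 223, 220, 217, 204, 185, 157, 184 and 232, so clones were lower in 8 of 8 mice. Its log2 difference was -0.43 ± 0.110 (SE), with an adjusted p of 0.0172 with the block in edgeR and 0.119 without it.

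Ndufb7 (ENSMUSG00000033938, chr8:83566671-83571626, plus strand), an accessory subunit of the same arm, had 232, 221, 241, 213, 202, 143, 196 and 271 CPM in clones and 286, 311, 278, 268, 256, 214, 251 and 277 in control cells. Clones were again lower in 8 of 8 mice (log2 difference -0.38 ± 0.0980, SE, edgeR adjusted p 0.0185 with the block and 0.119 without). Ndufv3 (ENSMUSG00000024038, chr17:31520115-31531331, plus strand), a small subunit of the NADH-oxidizing module, had 142, 143, 191, 268, 175, 157, 176 and 244 CPM in clones and 248, 257, 225, 240, 224, 204, 240 and 254 in control cells, lower in all mice but mouse 4. Its log2 difference was -0.41 ± 0.108 (edgeR adjusted p 0.0224 with the block and 0.126 without). Atp5k (ENSMUSG00000050856, chr5:108433244-108434448, minus strand), the e subunit through which complex V dimerizes, had 438, 422, 609, 482, 354, 327, 494 and 663 CPM in clones and 683, 692, 497, 447, 592, 518, 491 and 510 in control cells. Its clones were lower in 4 of 8 mice only, those whose clones were in pool 2 (mice 1, 2, 5 and 6), and higher in the 4 whose clones were in pool 1. The fitted difference, which has the pool as a term, was -0.30 ± 0.0897 (edgeR adjusted p 0.0466 with the block and 0.152 without).

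mt-Nd1 and mt-Nd3, at positions 2751 to 3707 and 9459 to 9806 of the mitochondrial genome, encode core subunits of the membrane arm of complex I. mt-Nd1 had 1869, 3073, 4102 and 2234 CPM in clones of mice 1 to 4 and 4165, 4059, 4241 and 3438 in their control cells, lower in 4 of 4, and over all mice it was lower in 7 of 8. mt-Nd3 had 387, 840, 1328 and 726 CPM in clones and 1352, 1347, 1296 and 1104 in control cells of mice 1 to 4, lower in 3 of 4, and over all mice in 5 of 8. At 48 h with the block, edgeR called 0.886% of all genes, 0.773% as lower, and mt-Nd1 (-0.62 ± 0.133, SE, adjusted p 0.0180) and mt-Nd3 (-0.77 ± 0.167, adjusted p 0.0315) as the only members. Without the block their adjusted p was 0.268 each. In the fit at a 50% limit, without the block, the differences were 0.25 for mt-Nd1 and 0.23 for mt-Nd3, the opposite sign. At 72 h with the block, edgeR called 2% of all genes, 0.999% in each direction, and 0 members. For the interaction it called 0.0283% of genes, 0.0189% as lower, and 0 members.

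These blocked calls moved with single mice. Without mouse 3 and with the block, edgeR called 7 nuclear and 10 mitochondrial members over all mice (8.11% of all genes) and 1 nuclear and 10 mitochondrial members at 48 h (3.30% of all genes), all lower, with the 3 remaining 48 h clone sums holding 4, 15 and 8 cells. Without mouse 5 it called 0 of both kinds over all mice, and without mouse 4 or mouse 1 it called 0 mitochondrial members in either contrast. Over these 8 fits the adjusted p of Ndufa11 ran from 0.00329 to 0.128 and that of mt-Nd1 at 48 h from 0.000979 to 0.281. Ndufa11 was called in 5 of the 8, Ndufb7 in 5, Ndufv3 in 3 and Atp5k in 2.

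The gates also differed in the kinds of cells they held, and the part of this in the differences above was not tested. The 12 stem markers summed to 5935 CPM in clones at 48 h (range 3734 to 8096) and 5644 at 72 h (4256 to 7430), against 2928 (2559 to 3235) and 3132 (1983 to 3871) in control cells, and all 12 were detected in each group. The 10 goblet markers summed to 490, 3188, 8235 and 42421 CPM in clones of mice 1 to 4 at 48 h, the highest being the sum of 8 cells, and to a mean of 27255 (16916 to 42427) at 72 h. In control cells they were at 40142 (28087 to 44843) and 40850 (26261 to 63847). The 15 enterocyte markers ranged from 425 to 19890 and from 1229 to 13879 in clones at the 2 times, and from 3082 to 12383 and from 3282 to 19656 in control cells. The 11 Paneth markers were at 3409 (616 to 10837) and 4285 (1863 to 9371) in clones, against 3161 (1711 to 6320) and 18288 (3237 to 37964) in control cells. Stem-like cells were 55.8% and 36.2% of clone cells at 48 h and 72 h, against 12.8% and 18.8% of control cells (means of 4 mice).

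Within the dividing class, clones held fewer nuclear members than control cells of the same mouse. The difference in share of nuclear UMIs was -0.77, -0.38, -0.33, -0.56 and -0.61 percentage points in mice 3, 5, 6, 7 and 8, lower in 5 of 5 (3.49% against 4.02%, mean difference -0.53 ± 0.179, SD) and -0.47 ± 0.136 without mouse 3. The mitochondrial share of the class differed by -0.89 ± 1.05 percentage points (4 of 5 lower), and by -0.95 ± 1.21 without mouse 3 (3 of 4 lower). Only the clones of mouse 3 represent 48 h in this class. Tested with edgeR over 5 clone and 8 control sums, with no block for the mouse, 0.282% of 7803 genes and 0 members were called. At an unadjusted p under 0.05, edgeR had 27 of 82 nuclear genes lower and 0 higher (all genes 3.74% lower; median log2 difference -0.19) and 0 of 13 mitochondrial genes. That count was 12 without mouse 3, 47 at a coarser clustering (resolution 0.6), 3 with the mitochondrial limit at 10% and 17 at 50%. It was 11 both with the members kept in the clustering and with a higher UMI minimum per cell. For these alternatives too, the share of all genes is not given.

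With the mouse as a block over the 5 mice with both gates, a fit added after the data were seen, edgeR called 1.55% of 7940 genes in the dividing class, 0.781% as lower and 0.768% as higher. Among them were 2 of 82 nuclear members, both lower, and 0 of 13 mitochondrial ones. So small a count does not set the nuclear members apart from other genes. Atp5g1, a c-ring gene of complex V, had 575, 693, 556, 538 and 766 CPM in dividing clones of mice 3, 5, 6, 7 and 8 and 835, 726, 708, 765 and 981 in their dividing control cells. It was lower in 5 of 5 (log2 difference -0.30 ± 0.0779, SE, edgeR adjusted p 0.0321 with the block and 0.487 without). Ndufa5 had 287, 204, 189, 288 and 319 CPM in clones and 350, 319, 269, 276 and 373 in control cells, lower in all but mouse 7 (-0.35 ± 0.0955, adjusted p 0.0449 with the block and 0.449 without). The lowest adjusted p of a mitochondrial member was that of mt-Nd1, at 0.0520 (-0.26). These calls also moved with single mice: edgeR with the block called 0 nuclear members without mouse 5, 6, 7 or 8 and 3 without mouse 3, and 3 mitochondrial members without mouse 6, 1 without mouse 3 or mouse 7 and 0 without mouse 5 or mouse 8.

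The dividing clusters were filled differently by gate: the Lgr5-rich mitotic cluster 1 made up 20.5% of dividing clone cells and 9.89% of dividing control cells, and cluster 13 made up 23.8% and 30.2%. Median depths in clones and control cells were 11719.5 and 18224 UMIs in cluster 13 and 13809 and 17184 in cluster 2. They were 30745 and 28402 in cluster 1 and 15307.5 and 13997 in cluster 0. The part of depth in the differences below was not tested. Within single clusters, the nuclear share was lower in clones by 0.896 ± 0.583 percentage points in cluster 13 (4 of 4 mice) and by 0.691 ± 0.412 in cluster 2 (3 of 3). In cluster 1 it fell by 0.241 ± 0.258 (3 of 3), and in cluster 0, the largest, the difference was -0.08 ± 0.150 (3 of 5 lower).

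In the stem-like class the nuclear share was lower in clones in 5 of 5 mice, by 0.214 ± 0.153 percentage points (3.05% against 3.26%), and by 0.226 ± 0.174 without mouse 3. Within its clusters the difference was -0.42 ± 0.368 in cluster 5 (4 of 5 lower) and 0.00470 ± 0.233 in cluster 8 (2 of 3 lower). Median depths in clones and control cells were 10494.5 and 13485 UMIs in cluster 5 and 16758 and 17005 in cluster 8. The part of depth was not tested. The mitochondrial share of the stem-like class differed by -0.45 ± 1.59 (2 of 5 lower), and by 0.0433 ± 1.31 without mouse 3 (1 of 4 lower). It differed by 0.129 ± 2.18 in cluster 5 (2 of 5 lower) and -0.81 ± 1.20 in cluster 8 (2 of 3 lower). In goblet-like cells the difference in nuclear share was -0.04 ± 0.0448 (3 of 4 lower), and -0.04 ± 0.0545 without mouse 3 (2 of 3 lower). Their mitochondrial share differed by -0.07 ± 0.383 (3 of 4 lower), and by -0.03 ± 0.460 without mouse 3 (2 of 3 lower). edgeR called 0 of 5832 genes in the stem-like and 0 of 7582 in the goblet-like class. At an unadjusted p under 0.05, 1 of 78 nuclear members was lower in stem-like clones (all genes 1.27%) and 0 of 82 in goblet-like ones (1.08%). With the mouse as a block, edgeR called 0% of 5607 genes in the stem-like class and 0.0542% of 7382 in the goblet-like class (0.0271% in each direction), with 0 members in either. DESeq2 was not run within classes.

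Of the related lists, 0 genes were called in the contrast of clones with control cells over all mice. At an unadjusted p under 0.05 in edgeR, 2 of 6 genes of complex II and cytochrome c, 2 of 18 of the tricarboxylic acid cycle, 3 of 15 of glycolysis and 11 of 78 of the mitochondrial ribosome were lower (all genes 10.2%). At that threshold 0, 0, 0 and 2 of them were higher. The 21 biogenesis regulators had 1 higher and 0 lower. The nuclear members' 22 of 83 stand beside these counts, and the difference between lists was not tested.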

How the data were processed

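Single cells from 2 pools were hashed by mouse. The deposited matrices hold UMI counts per gene and barcode, and hashtag counts, made by the authors with Cell Ranger 6.1.2 on mm10, per the submitters' processing notes. The deposited barcode and feature lists give names in the order of the matrices.

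Hashtags were assigned with HTODemux of Seurat 5.3.0 (positive quantile 0.99), which also removed cells with 2 hashtags; no other doublet caller was run. Of 3342 and 2110 barcodes, 4029 were assigned. Cells with at least 1000 UMIs, 500 genes and under 20% mitochondrial UMIs were kept. They were clustered with scanpy 1.11.5 (2000 variable genes without the members, 30 components, 15 neighbours, Leiden resolution 1) and named from markers. Nuclear members are given per UMIs of nuclear genes and mitochondrial genes per all UMIs, and class log2 ratios use a pseudocount of 1 CPM. Counts summed per mouse and gate (77566 to 6370450 UMIs) were tested with edgeR 4.0.16 (filterByExpr, TMM, quasi-likelihood, pool as covariate, Benjamini-Hochberg over all genes, threshold 0.05). The edgeR fit without the block was tried on simulated counts for clones against control. It recovered 64% of genes with a log2 difference of 1 over all mice, 30% at 48 h and 60% at 72 h. False calls were 16, 1 and 5. The fit with the block was simulated only within the dividing class. DESeq2 1.42.0, other filters, clusterings, library sizes and leaving out each mouse were alternatives. Separate mice are the replicates.

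The same mouse gave both gates: residuals of its 2 sums correlated with 0.0210 to 0.431 over 8 mice. Pairing by mouse comes from the hashtag labels. The fit with the block stands beside results it changes. Leaving out mice under the block, the block within classes, and the dividing secretory class were chosen after seeing the data.

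Members and lists were chosen with earlier results of these data known. Genes named are the 3 most abundant per complex, the alternative isoforms, the 3 of each kind with the widest range over classes, and members called in a contrast, here with the block. Cox7a2l, Ndufa7, the narrowest genes, the order of clusters and the members called without 1 mouse were picked after their values were seen. Of the members, 38 overlap another annotated gene, 5 of them a coding gene on the same strand.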

Additional observations from a re-analysis of the deposited data

Results flagged for a closer look

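Of 65 groups of 4 to 10 mice examined for a sample far from the others, 3 had one, and chance alone gives about 1 in 20. All 3 concern the nuclear members as percent of nuclear UMIs. In clones at 72 h, mouse 8 was at 3.79%, above 3.07% to 3.17% in the other 3 mice. In control cells at 72 h, mouse 6 was at 3.25%, below 3.67% to 3.74% in the others. In the dividing class, clones of mouse 8 were at 3.86%, above 3.33% to 3.47% in the other 4 mice. Mouse 8 gave the most clone cells, 326.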

How the results depend on the processing

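With other limits on mitochondrial share, mitochondrial means for clones at 48 h and 72 h and control cells at 48 h and 72 h were 4.83%, 5.52%, 5.20% and 5.52% at 10%, then 14.3%, 11.9%, 10.2% and 11.8% at 50%, and 15.4%, 12.7%, 10.6% and 12.9% with no limit. Nuclear members in clones at 48 h were then 3.23% at 50% and 3.21% with no limit. In control stem-like, dividing, goblet-like and enterocyte-like cells the mitochondrial share was 5.70%, 5.80%, 4.69% and 6.15% at 10% and 14.1%, 13.5%, 6.96% and 13.2% at 50%. Nuclear members in stem-like cells were 2.39% at 10% and 2.37% at 50%, in dividing 3.69% and in enterocyte-like cells 5.08% at 50%. Stem-like cells also moved with the clustering, to 8.82% mitochondrial UMIs at resolution 0.6 and 2.78% nuclear members at resolution 1.5, because other cells are then in the class. At 50% and with no limit, mt-Nd1 turned to 0.25 and 0.26 at 48 h and to 0.0948 and 0.0817 over all mice, and mt-Nd3 to 0.23 and 0.26 at 48 h and 0.0859 and 0.0822 over all mice. The cause was not tested.

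With edgeR as designed, and leaving out 1 mouse from it, members called were 0 in each contrast over mouse and gate sums. With the block, the paired fit called 4 nuclear and 2 mitochondrial members over all mice and 2 mitochondrial members at 48 h, and 4 nuclear members also with nuclear library sizes. Leaving out 1 mouse under the block gave 0 to 7 nuclear (6 without mouse 4 or mouse 6) and 0 to 10 mitochondrial members over all mice. At 48 h it gave 0 to 1 and 0 to 10, with 0.145% (without mouse 2) to 3.30% (without mouse 3) of all genes called. At 72 h it gave 0 to 1 nuclear members. Where this paragraph prints no share of all genes, a count does not show whether members moved more than other genes. Over all mice DESeq2 called 2 nuclear members (Cox7a1, adjusted p 0.0442, and Ndufa11, 0.0497), the 50% limit 3 and no limit 5. With no filter on low counts, 4 nuclear and 2 mitochondrial members were called over all mice, 1 and 2 at 48 h, 1 and 0 at 72 h, and 2 mitochondrial members for 72 h against 48 h in clones. The block changed no other call of a member in these contrasts. Within the dividing class the block gave 2 nuclear members called in place of 0, and leaving out 1 mouse under it gave 0 to 3 nuclear and 0 to 3 mitochondrial members. Within the stem-like and goblet-like classes it changed no call. Leaving out a mouse under the block could not be fitted for goblet-like cells, with 4 pairs. Under alternatives other than leaving out 1 mouse, 212 values of these results stayed within the spread or within 1.5 times and 42 moved.

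Few cells limit the 48 h clones: 3 of 4 sums had 15 or fewer. Differences within the enterocyte-like class between gates were not tested, since 2 mice had enough clone cells. At this depth, Cox7a1 in stem-like cells is close to the lowest count that can be seen.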

Other observations

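Cells left out for their mitochondrial share also differed in the nuclear members. Grouped by mitochondrial share, nuclear members took 3.59% ± 0.331 of nuclear UMIs (SD over 15 sums of mouse and gate) in 1313 cells under 10%, and 3.46% ± 0.740 (14 sums) in 680 cells from 10% to 20%. They took 2.58% ± 0.409 (16 sums) in 1330 cells from 20% to 50% and 1.67% ± 0.283 (10 sums) in 216 cells at 50% or more. The nuclear-retained RNA Malat1 stood at 9341, 14697, 21636 and 28672 counts per 1000000 nuclear UMIs in the same groups, and median depth at 25035, 10963.5, 5863 and 3593 UMIs per cell.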
